A study of Phyllostachys edulis with 2 samples.

Results

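Protoplasts chosen by ground tissue genes, with PH02Gene45651 not detected, formed a class of 1128 cells, 553 in replicate 1 and 575 in replicate 2, among the 15304 kept cells of moso bamboo (Phyllostachys edulis) basal root tips. These members were chosen by their own counts, and the name ground tissue rests on the genes of the choice. A kept cell had more than 500 genes, and a member had under 2500 unique molecular identifiers (UMIs, the RNA molecules counted in a cell), no UMI of PH02Gene45651, no UMI of PH02Gene04869, and at least 3 UMIs of PH02Gene05035 and PH02Gene28983 added together. The study's text names PH02Gene45651 and PH02Gene04869 for ground tissue, and the pair was taken here as ground tissue markers. Members made up 15.7% and 16.9% of the 3516 and 3397 kept cells under 2500 UMIs in replicates 1 and 2.

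The study freed protoplasts from root tips of about 2 cm by 3 h of enzyme digestion and sequenced them in droplets from the 3′ end of the RNA. The plants were 6 to 8 weeks old, and the labels give 1 group with no treatment, genotype or tissue other than root. The 2 libraries, called biological replicates by the study, held 7668 and 7656 barcodes with 36419750 and 42126823 UMIs. Every p-value below therefore measured the spread between sums from 2 libraries. The kept cells of both libraries shared 15 barcodes, 1 of which belonged to a member of replicate 1. No doublet caller was run here.

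The ground tissue of a grass root lies between the epidermis and the vascular cylinder. It holds the exodermis, a layer of sclerenchyma, the cortex and the endodermis, and water and ions cross it on their way to the xylem. In bamboo it is the tissue in which air spaces form and in which walls thicken and lignify as the root matures. A cell in a droplet gives up only a small part of its RNA, so a gene with no UMI in a cell may have been absent from it or may have been missed.

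The genes behind the choice carried annotations of several kinds. PH02Gene45651 was annotated as a membrane transporter of the ABC type, PH02Gene04869 as endoglucanase 7, which cuts wall glucans, PH02Gene05035 as a probable E3 ubiquitin-protein ligase and PH02Gene28983 as a proteolytic subunit of the chloroplast Clp protease. The study used DNA probes for in situ hybridization against the 2 genes whose absence chose the members, and against 2 further ground tissue markers that the choice did not use. Those 4 probes are shown because they are the designed sequences by which these genes were placed in the root; each is written 5′ to 3′, and the capitals mark the final CAT, the reverse complement of ATG. Each is the reverse complement of the sense control that the study lists for it, and none was matched to a genome here.
PH02Gene45651: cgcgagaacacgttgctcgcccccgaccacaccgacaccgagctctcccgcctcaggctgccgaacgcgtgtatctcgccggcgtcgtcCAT
PH02Gene04869: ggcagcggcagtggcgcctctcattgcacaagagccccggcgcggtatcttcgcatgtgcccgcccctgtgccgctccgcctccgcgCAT
PH02Gene29708: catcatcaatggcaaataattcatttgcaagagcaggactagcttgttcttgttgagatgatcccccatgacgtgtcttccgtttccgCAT
PH02Gene15920: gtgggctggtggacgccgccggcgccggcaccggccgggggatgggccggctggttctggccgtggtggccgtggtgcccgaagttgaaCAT
They ran to 92, 90, 91 and 92 bases, with 68.5%, 71.1%, 44.0% and 75% G or C in the order shown.

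Members were shallow cells. Their median was 977 UMIs and 791 genes in replicate 1 and 1048 UMIs and 847 genes in replicate 2, and their sums held 605679 and 639197 UMIs. Levels below are in CPM, which scales the UMIs of a gene to a common total for every sum, and on this scale 3 UMIs were worth 4.95 and 4.69 CPM in members. The other 5785 kept cells under 2500 UMIs had medians of 1063 and 1150 UMIs. The 7093 cells of at least 4000 UMIs had medians of 7959 and 8776 UMIs. The 1298 cells between these ranges entered no comparison.

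The 4 genes of the choice are given as a description only. The pair of genes summed to a median of 4 UMIs in replicate 1 and 5 UMIs in replicate 2, up to 23 and 26 UMIs. Both genes of the pair were seen in 66.9% and 67.0% of members, PH02Gene05035 alone in 67 and 73 members and PH02Gene28983 alone in 116 and 117 members. Just inside the limit, 174 and 150 members had exactly 3 UMIs of the pair, at median depths of 894 and 914.5 UMIs. Just outside it, 210 and 197 cells without the 2 excluding genes had 2 UMIs of the pair, at median depths of 927 and 885 UMIs. At the upper UMI limit, 11 and 3 members lay between 2400 UMIs and the limit, and 11 and 3 cells that met the gene conditions lay between the limit and 2600 UMIs. The edge of the class was thus well filled on the side of the pair and thinly filled on the side of depth.

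Absence of the 2 excluding genes varied with depth, and not in one direction. Over all kept cells under 2500 UMIs, PH02Gene45651 stood at 1795 and 1738 CPM and PH02Gene04869 at 476 and 446 CPM. At the median depth of members those levels came to 1.75 and 1.82 UMIs of PH02Gene45651 and to 0.465 and 0.467 UMIs of PH02Gene04869 per cell. Among cells with the pair at 3 UMIs or more, 39.8% and 44.9% had neither gene at 500 to under 1000 UMIs, against 19.7% and 10.9% at 2000 to under 2500 UMIs. The share was 38.4% and 31.2% again at 2500 to under 4000 UMIs. Among cells with the pair under 3 UMIs it was 41.1% and 48.3% at 500 to under 1000 UMIs and fell to 28.3% and 24.9% at 1000 to under 1500 UMIs. It was 26.1% and 30.8% at 1500 to under 2000 UMIs and 42.3% and 41.1% at 2000 to under 2500 UMIs. In these cells the share thus also fell at first, but it rose again within this range. How many members lacked the RNA and how many had it missed was not tested.

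**Figure D1:**
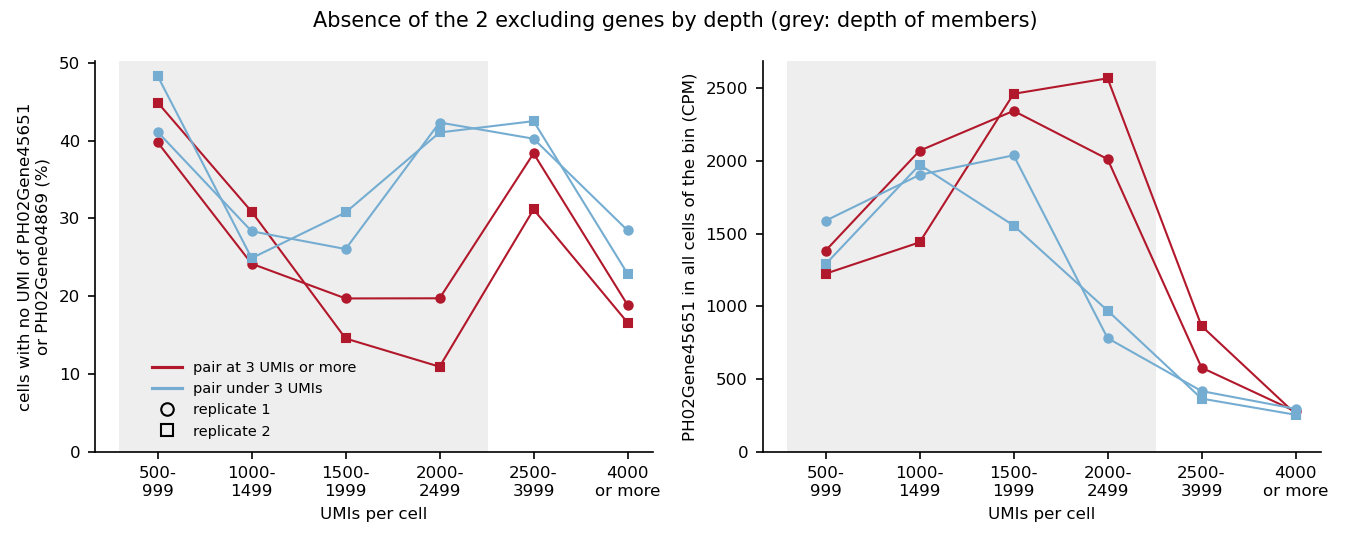
Percentage of cells with no UMI of PH02Gene45651 or PH02Gene04869 (left) and level of PH02Gene45651 in all cells of the bin in CPM (right), by UMIs per cell, for cells with the marker pair at 3 UMIs or more (red) and under 3 UMIs (blue) in replicates 1 (circles) and 2 (squares); the grey field is the depth of members. In the red cells of replicate 1 the share without either gene was 39.8% at 500 to under 1000 UMIs, 38.4% at 2500 to under 4000 UMIs and 18.9% at 4000 UMIs or more, while PH02Gene45651 stood at 1383, 578 and 277 CPM in those bins.

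The other 3 markers that the study assigned to ground tissue took no part in the choice. PH02Gene29708, annotated as a LEC14B protein, had 652 and 720 CPM in members, against 695 and 711 CPM in the other cells under 2500 UMIs. PH02Gene15920, an uncharacterized protein, had 3068 and 2849 CPM in members, against 3123 and 2776 CPM in the other cells under 2500 UMIs. PH02Gene36478, which has no description, had 221 and 175 CPM in members, against 220 and 163 CPM in those cells. The log2 fold changes were -0.07, -0.03 and 0.02, and none passed the test (edgeR quasi-likelihood test, Benjamini-Hochberg adjusted p under 0.05, which is what called means below). These 3 markers therefore did not set members apart from the other shallow cells. In cells of at least 4000 UMIs the levels were 215 and 200 CPM of PH02Gene29708, 1982 and 2040 CPM of PH02Gene15920 and 88.4 and 101 CPM of PH02Gene36478. Against those cells PH02Gene29708 rose by 1.20 (SE 0.08, adjusted p = 2.2e-16) and PH02Gene36478 by 0.54 on the log2 scale (SE 0.13, adjusted p = 1.6e-03), the second with its call lost when 1 sum was left out (adjusted p up to 0.22), and PH02Gene15920 changed by 0.03 and was not called. After every cell was thinned to 500 UMIs, at least 1 of the 3 markers was seen in 81.0% and 80.7% of members, in 81.2% and 80.5% of other cells under 2500 UMIs, and in 53.3% and 55.1% of cells of at least 4000 UMIs. In these unused markers members thus resembled the other shallow cells. Against deep cells the difference differed by marker, since PH02Gene15920, the most abundant of them, was not called. The thinned shares carry no scaling between sums, unlike the fold changes.

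**Figure D2:**
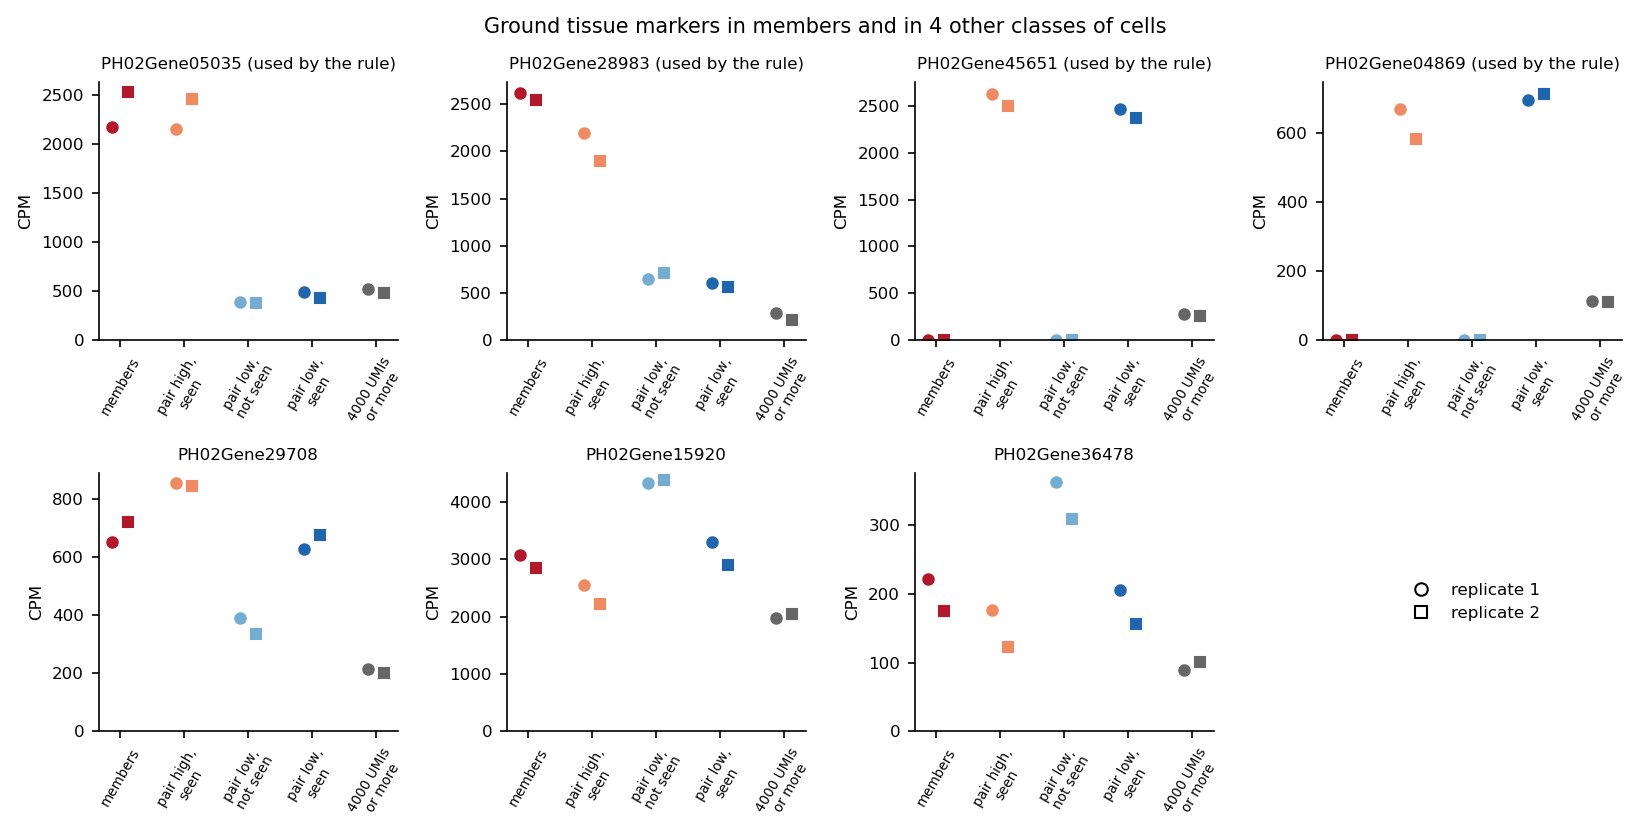
Levels in CPM of 7 ground tissue markers in the summed cells of 5 classes: members, cells under 2500 UMIs with the pair at 3 UMIs or more and PH02Gene45651 or PH02Gene04869 seen, cells under 2500 UMIs with the pair low and these genes not seen or seen, and cells of at least 4000 UMIs, in replicates 1 (circles) and 2 (squares). The first 4 panels show genes used by the choice, and in the last row PH02Gene15920 was highest where the pair was low and neither gene was seen, at 4329 and 4382 CPM.

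Markers of the other cell types were present in members and none was at 0. The root cap marker PH02Gene17668, at 872 and 959 CPM in members, stood above the ground tissue markers PH02Gene29708 and PH02Gene36478. The 8 root cap markers summed to 1606 and 1633 CPM in members, against 1782 and 1768 CPM in other cells under 2500 UMIs. The 3 initial cell markers summed to 740 and 738 CPM in members, against 641 and 600 CPM in other cells under 2500 UMIs. The 2 epidermis markers summed to 388 and 435 CPM in members, against 389 and 403 CPM in those cells. The 2 transition cell markers summed to 561 and 607 CPM in members, against 495 and 485 CPM, and the 5 markers of undefined clusters to 827 and 737 CPM, against 689 and 676 CPM. In cells of at least 4000 UMIs every one of these 5 lists was higher than in members, as with 2113 and 2313 CPM for root cap markers and 774 and 829 CPM for epidermis markers. What part these cell types had in the results below was not tested.

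Against all other kept cells under 2500 UMIs, members had 184 genes higher, 0.856% of the 21495 tested, and 562 lower, 2.61% of them. The drop was therefore the more frequent change, and 267 of the lower genes but 33 of the higher ones differed by at least 2-fold. The median log2 fold change of all genes tested was -0.01. The choice used counts of these same cells, so these calls describe the class as chosen. With 1 of the 4 compared sums left out in turn, the counts were 90 higher and 248 lower without members of replicate 1, and 42 higher and 279 lower without members of replicate 2. They were 88 higher and 465 lower without the other cells of replicate 1, and 157 higher and 582 lower without the other cells of replicate 2. In those fits the lone sum was assumed to vary like the others. Of 69 named genes called, 27 kept their call in all 4 of those fits, and the genes described next are among them unless stated.

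Among the largest rises was PH02Gene16591, a probable leucine-rich repeat (LRR) receptor-like kinase, a type of protein that senses signals at the cell surface. It had 116 and 117 CPM in members, against 58.3 and 66.6 CPM in other cells under 2500 UMIs, a log2 fold change of 0.87 (SE 0.16, adjusted p = 3.1e-04). PH02Gene12117, a probable feruloyl esterase, an enzyme that frees ferulic acid from grass walls, had 165 and 203 CPM in members, against 100 and 105 CPM in the other cells, a log2 fold change of 0.81 (SE 0.13, adjusted p = 3.8e-05). PH02Gene16058, a probable metal-nicotianamine transporter of the YSL type, had 205 and 211 CPM in members, against 120 and 121 CPM in the other cells, a log2 fold change of 0.76 (SE 0.12, adjusted p = 3.7e-05). In none of these 3 genes did the sums overlap, but this held for 182 of the 184 higher genes and so does not set these 3 apart. The largest rise of all by the naming rule, 1.05 for PH02Gene39337, which has no description, rested on 37 and 73 UMIs in members and lost its call without members of replicate 2 (adjusted p = 0.50).

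The falls were larger. PH02Gene04412, annotated as trimethylguanosine synthase, the enzyme that adds methyl groups to the cap of small nuclear RNA, had 23.1 and 43.8 CPM in members, against 151 and 138 CPM in other cells under 2500 UMIs, and fell by 2.13 on the log2 scale (SE 0.20, adjusted p = 8.7e-10). PH02Gene48792, annotated with serine-type carboxypeptidase activity in the vacuole, had 173 and 180 CPM in members, against 601 and 572 CPM in the other cells, and fell by 1.76 (SE 0.11, adjusted p = 3.4e-15). It was the most abundant of the 10 genes with the largest falls. PH02Gene25653, ribose-phosphate pyrophosphokinase 2, which makes the sugar donor for nucleotides, had 52.8 and 53.2 CPM in members, against 154 and 141 CPM in the other cells, and fell by 1.51 (SE 0.17, adjusted p = 4.1e-08). PH02Gene33454, a transporter of the nitrate and peptide family, had 114 and 102 CPM in members, against 306 and 262 CPM in the other cells, and fell by 1.43 (SE 0.13, adjusted p = 9.6e-10). PH02Gene38567, an ortholog of WALLS ARE THIN 1, which in Arabidopsis is needed for secondary walls in fibres, had 38.0 and 48.5 CPM in members, against 121 and 105 CPM in the other cells. All 10 of the largest falls among genes with a mean of at least 50 CPM were genes that the study lists for its ground tissue Cluster 1 and not for its Cluster 0, and so is PH02Gene45651 itself. The study drew those lists from these same libraries, so their direction is not independent evidence. Its placements of PH02Gene45651 differ, since its text names that gene for Cluster 0 and its supplementary in situ figure for another ground tissue cluster. Cells under 2500 UMIs with the pair low and neither excluding gene seen were also low in the falling genes given above. They had 33.6 and 43.1 CPM of PH02Gene04412 and 221 and 167 CPM of PH02Gene48792. Of PH02Gene25653 they had 75.2 and 62.1 CPM, of PH02Gene33454 152 and 109 CPM and of PH02Gene38567 43.2 and 43.1 CPM. These falls were therefore not particular to members.

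**Figure D3:**
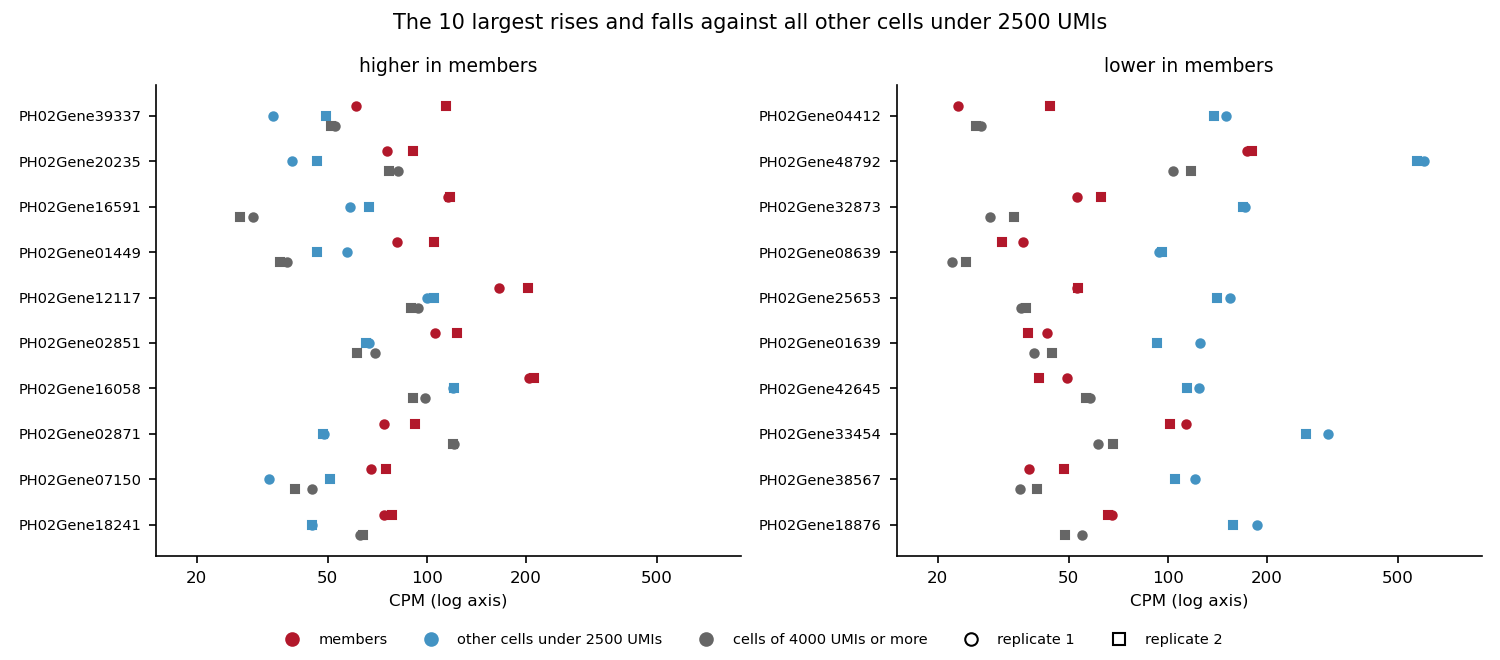
Levels in CPM (log axis) of the 10 genes with the largest rises (left) and the 10 with the largest falls (right) in members against all other cells under 2500 UMIs, shown for members (red), other cells under 2500 UMIs (blue) and cells of at least 4000 UMIs (grey) in replicates 1 (circles) and 2 (squares). The 10 genes on the right lie lower in members than in other cells under 2500 UMIs in both replicates, as with 173 and 180 CPM against 601 and 572 CPM for PH02Gene48792.

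Among genes grouped by function, chaperones and heat stress factors changed most often. The function lists were drawn largely from the study's tables of genes for Clusters 0 and 1 and so are not independent of these libraries. All 13 wall remodelling enzymes are on the Cluster 1 list, and 15 of the 23 chaperones and 6 of the 7 LRR receptor kinases are on the Cluster 0 list. Over all genes tested, 0.856% rose and 2.61% fell in this contrast. Of 23 chaperones and heat stress factors, 4 rose and 11 fell, with a median of -0.25; without members of replicate 1 these counts were 2 and 3, and without members of replicate 2 they were 2 and 6. The risers included the calnexins PH02Gene08936, with 433 and 480 CPM in members against 303 and 315 CPM in the other cells, and PH02Gene29370, with 510 and 576 CPM in members against 358 and 385 CPM. Calnexins fold newly made proteins in the endoplasmic reticulum, and these 2 rose by 0.53 (SE 0.09) and 0.52 (SE 0.08). Those that fell included the heat stress transcription factor PH02Gene05710, with 99.1 and 76.7 CPM in members against 142 and 156 CPM in the other cells (-0.80, SE 0.15), whose call was lost without members of replicate 2. Cells with the pair low and neither gene seen had 80.0 and 75.9 CPM of PH02Gene05710, so its fall was not particular to members. Of 7 LRR receptor kinases, 3 rose and none fell, with a median of 0.32, and without members of replicate 2 the risers came to 1.

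Laccases and peroxidases, which polymerize lignin in the wall, went both ways. Of 18, 5 rose and 4 fell, with a median of -0.12, and without members of replicate 1 or 2 they were 3 and 0 or 3 and 1. PH02Gene01024, annotated as laccase-9, was the most abundant gene of the list, at 3875 and 4391 CPM in members and 2710 and 3011 CPM in the other cells (0.50, SE 0.06, adjusted p = 5.4e-07). Several genes of the list carry the same laccase-9 annotation, so UMIs could be split between near-identical copies. Of 12 wall remodelling enzymes tested, none rose and 3 fell (fewer without members of replicate 2), and PH02Gene30808, a COBRA-like protein that acts in laying down cellulose, fell by 1.21 (SE 0.18, adjusted p = 2.2e-05), with 54.5 and 43.8 CPM in members against 120 and 103 CPM in the other cells. Cells with the pair low and neither gene seen had 75.2 and 58.6 CPM of PH02Gene30808, so low levels were not particular to members.

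Transporters and ubiquitin ligases went both ways. Of 24 ABC transporters tested, 1 rose and 5 fell, with a median of 0.01, and 1 fell without members of replicate 1. PH02Gene10640, an ABC transporter of family C, fell by 0.98 (SE 0.17), with 56.1 and 57.9 CPM in members against 109 and 111 CPM in the other cells. Of 24 ubiquitin ligases tested, 4 rose and 7 fell, with a median of -0.13, and without members of replicate 2 none rose and 3 fell. PH02Gene49137, annotated as RGLG1, fell by 1.55 (SE 0.21), with 34.7 and 28.2 CPM in members against 94.9 and 84.2 CPM. Of 13 calcium and proton pumps, 3 rose and 2 fell, and without members of either replicate none rose. PH02Gene24301, calcium-transporting ATPase 2, fell by 1.05 (SE 0.18), with 49.5 and 51.6 CPM in members against 105 and 101 CPM. None of the 7 water channels was called.

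In sugar and hormone genes single members moved. Of 10 genes of trehalose and sucrose metabolism, 2 rose and 2 fell, and PH02Gene16676, galactinol synthase 2, which makes the donor for raffinose sugars, fell by 0.89 (SE 0.12, adjusted p = 2.3e-06), with 183 and 138 CPM in members against 296 and 286 CPM in the other cells. Of 11 factors of the ethylene response (ERF) family, 2 rose and 1 fell: PH02Gene31767, the most abundant, had 857 and 659 CPM in members and 1062 and 1018 CPM in the other cells (-0.49, SE 0.08). Of 4 NAC factors, 2 fell, and PH02Gene33943 had 122 and 147 CPM in members, against 218 and 225 CPM in the other cells (-0.75, SE 0.12). None of 14 AUX/IAA repressors, 5 WRKY factors or 5 calcium-dependent kinases was called. Of 21 xylem and vascular orthologs tested, 2 fell, and PH02Gene20438, an ortholog of a xylem cysteine peptidase of Arabidopsis, fell by 1.99 (SE 0.30, adjusted p = 1.8e-05), with 16.5 and 15.6 CPM in members against 69.2 and 55.9 CPM. Cells with the pair low and neither gene seen had 146 and 176 CPM of PH02Gene16676 and 20.8 and 13.8 CPM of PH02Gene20438. Of PH02Gene31767 they had 711 and 738 CPM and of PH02Gene33943 150 and 162 CPM. These falls were therefore not particular to members.

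**Figure D4:**
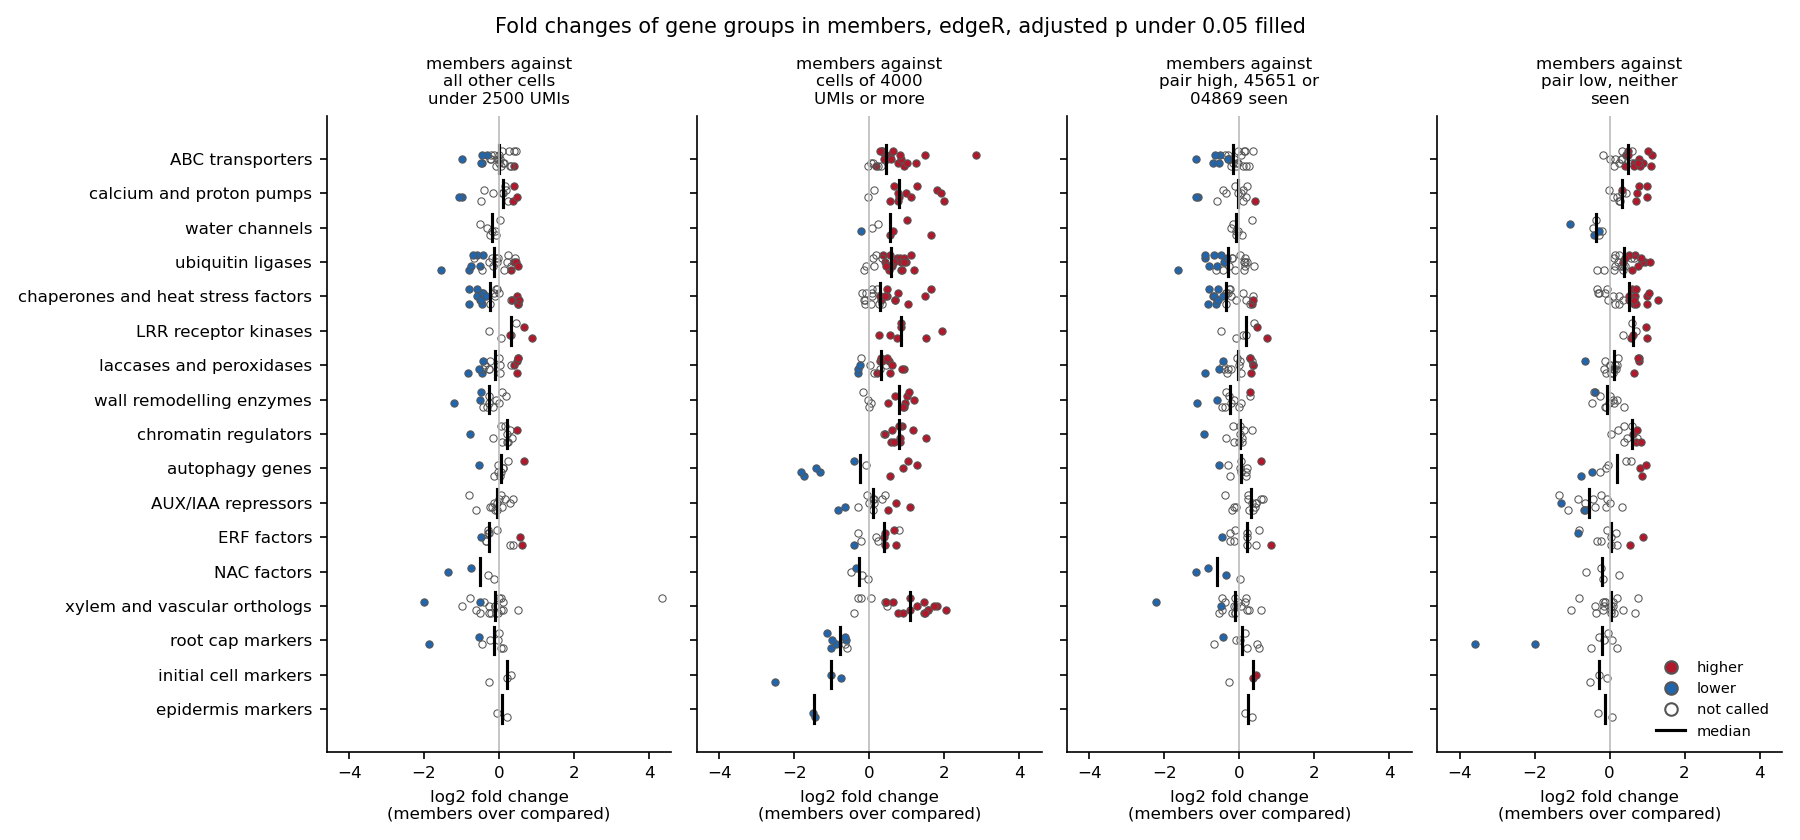
Log2 fold changes of the tested members of 17 gene groups in members over each of 4 compared sets of cells (panels), with called genes filled (red higher, blue lower), genes not called open and a bar at the median of the group. Against all other cells under 2500 UMIs the chaperones had a median of -0.25 and the LRR receptor kinases one of 0.32, and against cells of at least 4000 UMIs most groups lay to the right while the epidermis and root cap markers lay to the left.

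Against cells of at least 4000 UMIs, members had 3183 genes higher, 14.8% of those tested, and 4714 lower, 21.9% of them. This contrast set 1128 shallow cells against 7093 deep cells of all types, so depth and cell type cannot be told apart in it. When sums were scaled by their totals alone instead of by TMM, all log2 fold changes moved up by a median of 0.53, and 6341 genes were higher and 1763 lower, so that 78.2% of the calls were higher, against 40.3% with TMM. Fold changes given here are on the TMM scale and lie below the ratio of the CPM values by about that shift. Without members of replicate 1 the counts were 1881 higher and 3816 lower, and without members of replicate 2 they were 1579 higher and 3545 lower. Without the deep cells of replicate 1 or 2 they stayed within 1.5 times. Of 109 named genes called, 88 kept their call in all 4 fits that left out 1 sum, and the genes given here are among them.

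The largest rise named was PH02Gene27896, annotated as mitochondrial apocytochrome b, with 660 and 713 CPM in members, against 73.7 and 58.8 CPM in cells of at least 4000 UMIs (log2 fold change 2.86, SE 0.09, adjusted p = 3.3e-25). It also stood at 532 and 521 CPM in the other cells under 2500 UMIs, so it was high in shallow cells in general. PH02Gene28983, a gene of the choice with a chloroplast annotation, had 1379 and 1304 CPM in the other cells under 2500 UMIs, against 284 and 215 CPM in cells of at least 4000 UMIs. What part such organelle genes had in the result was not tested. PH02Gene13967 was annotated as BoCesA7, a cellulose synthase of Bambusa oldhamii, and listed as an ortholog of Arabidopsis AT5G44030, which makes the cellulose of secondary walls. It had 89.2 and 76.7 CPM in members, against 14.1 and 14.0 CPM in deep cells (2.04, SE 0.18, adjusted p = 3.2e-12), and the other cells under 2500 UMIs had 80.3 and 74.9 CPM. Of 21 xylem and vascular orthologs tested, 15 rose and none fell, with a median of 1.08, and 7 rose without members of either replicate. PH02Gene03391, asparagine synthetase-1, had 79.2 and 97.0 CPM in members, against 11.6 and 14.0 CPM in deep cells (2.26, SE 0.19), and the other cells under 2500 UMIs had 78.9 and 77.4 CPM.

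The function lists differed in how many genes rose against deep cells. They were drawn largely from the study's lists for Cluster 0 alone, of which 242 of 317 genes rose and 11 fell, and for Cluster 1 alone, of which 246 of 533 rose and 53 fell. Of 24 ABC transporters 19 rose (9 without members of replicate 2), led by PH02Gene24658 of family B, with 75.9 and 53.2 CPM in members against 6.10 and 6.27 CPM in deep cells (2.85, SE 0.22), while the other cells under 2500 UMIs had 68.9 CPM in both replicates. Of 13 pumps 11 rose, of 24 ubiquitin ligases 18 (12 without members of replicate 2), of 23 chaperones 11 (7 without members of either replicate), of 7 LRR kinases all 7 and of 11 chromatin regulators 10, and none of these lists held a gene that fell. Of 18 laccases and peroxidases 10 rose and 3 fell, of 14 AUX/IAA repressors 3 rose and 2 fell, of 4 NAC factors none rose and 1 fell, and of 2 GRAS factors none was called. Of 7 water channels, 4 rose and 1 fell, though with library totals alone all 7 rose. PH02Gene33633 rose by 1.65 (SE 0.12), with 287 and 296 CPM in members against 57.4 and 71.2 CPM in deep cells, and PH02Gene03621, aquaporin TIP1-1, was at 1068 and 1103 CPM in members and 878 and 867 CPM in deep cells, a log2 fold change of -0.21 that turned to 0.32 with library totals alone. Of 10 trehalose and sucrose genes 4 rose, and PH02Gene10363, a probable trehalase, had 538 and 659 CPM in members, against 176 and 161 CPM in deep cells (1.31, SE 0.09). The other cells under 2500 UMIs had 359 and 315 CPM of PH02Gene33633 and 485 and 557 CPM of PH02Gene10363. High levels of these genes were therefore not particular to members.

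Most of the study's markers of root cap, initial, transition, epidermis and undefined cells were lower in members than in deep cells, unlike the xylem and vascular orthologs above, and so was a gene of the auxin response. PH02Gene41953, an auxin-responsive protein of the SAUR family, had 34.7 and 31.3 CPM in members, against 133 and 136 CPM in deep cells (-2.55, SE 0.17, adjusted p = 8.5e-16). All 3 initial cell markers, both transition cell markers, both epidermis markers, all 5 markers of undefined clusters and 6 of 8 root cap markers fell (3 of 8 with library totals alone, which left the other 4 lists as they were). PH02Gene02039, a transition cell marker, had 365 and 433 CPM in members, against 1079 and 1116 CPM in deep cells (-1.98, SE 0.08), and PH02Gene14566, an epidermis marker, had 259 and 300 CPM in members, against 526 and 575 CPM (-1.50, SE 0.09). Autophagy genes went both ways. PH02Gene25011, an ATG8, which coats the autophagosome, had 304 and 313 CPM in members, against 742 and 777 CPM in deep cells (-1.82, SE 0.08), and PH02Gene00214, the kinase ATG1c, had 114 and 131 CPM in members, against 35.3 and 35.9 CPM (1.27, SE 0.14). PH02Gene29317, an ATG13a, had 111 and 113 CPM in members, against 107 and 97.3 CPM in deep cells. Of 10 autophagy genes, 4 rose and 5 fell, and 5 rose and 4 fell with library totals alone. The other cells under 2500 UMIs had 29.4 and 27.8 CPM of PH02Gene41953 and 342 and 339 CPM of PH02Gene02039. They had 277 and 290 CPM of PH02Gene14566, 285 and 296 CPM of PH02Gene25011 and 123 and 121 CPM of PH02Gene00214. The differences of these genes from deep cells were therefore not particular to members.

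Members and their nearest counterparts differed in the excluding genes alone as far as the choice goes. The counterparts were the 2699 cells under 2500 UMIs with the pair at 3 UMIs or more and at least 1 UMI of PH02Gene45651 or PH02Gene04869. They were deeper, with medians of 1186 and 1326 UMIs. Against them members had 400 genes higher, 2.57% of the 15542 tested, and 732 lower, 4.71% of them. The sums of members alone carried much of these counts, which were 92 higher and 271 lower without members of replicate 1, and 154 higher and 412 lower without members of replicate 2. Without counterparts of replicate 1 they were 175 and 530, and without counterparts of replicate 2 194 and 548. Among cells of 1000 to under 2000 UMIs, 163 genes were higher and 385 lower, and with every cell thinned to 500 UMIs 46 were higher and 270 lower. Of 68 named genes called, 23 kept their call in all 4 fits that left out 1 sum. The same member sums entered every contrast, so the contrasts are not independent of each other.

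The 7 falls described next kept their call in all 4 fits that left out 1 sum. PH02Gene10712, an abhydrolase domain protein, had 11.6 and 18.8 CPM in members, against 97.1 and 88.2 CPM in counterparts (-2.60, SE 0.27, adjusted p = 1.9e-10). PH02Gene04412 had the same member levels as above, against 159 and 161 CPM in counterparts (-2.25, SE 0.21), and PH02Gene48792 stood against 654 and 671 CPM (-1.91, SE 0.11, adjusted p = 4.7e-19). PH02Gene34192, which shares its description with PH02Gene48792, had 16.5 and 31.3 CPM in members, against 110 and 113 CPM in counterparts (-2.21, SE 0.24). Their counts may be split between copies. All 10 of the largest falls among genes with a mean of at least 50 CPM were on the study's Cluster 1 list. Cells with the pair low and neither gene seen had 19.2 and 17.2 CPM of PH02Gene10712 and 38.4 and 31.0 CPM of PH02Gene34192. Low levels of these genes were therefore not particular to members. Of the regulators, PH02Gene33943, a NAC factor, stood against 227 and 250 CPM in counterparts (-0.83, SE 0.13), PH02Gene17244, a putative polycomb protein EZ1, had 77.6 and 54.8 CPM in members against 128 and 125 CPM (-0.95, SE 0.18), and PH02Gene06872, an ABC transporter of family D, had 183 and 188 CPM in members against 308 and 293 CPM (-0.70, SE 0.12). In cells with the pair low and neither gene seen PH02Gene33943 had 150 and 162 CPM and PH02Gene17244 56.0 and 72.4 CPM. PH02Gene06872 had 96.0 and 102 CPM there, so these low levels were also not particular to members.

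Of the 400 rises against the counterparts 66 were at least 2-fold, and of the 10 largest among genes with a mean of at least 50 CPM, 9 were of genes with no description. The one with a name, PH02Gene43119, an AP2/EREBP-like factor, had 263 and 217 CPM in members, against 133 and 132 CPM in counterparts (0.85, SE 0.13, adjusted p = 3.2e-06), and kept its call in all 4 fits. Its call against all other shallow cells, at 151 and 153 CPM, was lost without members of replicate 1 (adjusted p = 0.094). Cells with the pair low and neither gene seen had 205 and 262 CPM of PH02Gene43119, so its high level was not particular to members. Over all genes tested, 2.57% rose and 4.71% fell against the counterparts. Of 24 ABC transporters none rose and 6 fell, of 24 ubiquitin ligases none rose and 9 fell, and of 23 chaperones 2 rose and 9 fell, with medians of -0.16, -0.30 and -0.35, against 0.04 over all genes tested. Without members of replicate 1 the falls came to 4, 6 and 5. Of the unused ground tissue markers, PH02Gene29708 had 652 and 720 CPM in members, against 856 and 846 CPM in counterparts (-0.32, adjusted p = 8.6e-03), and PH02Gene15920 had 3068 and 2849 CPM in members, against 2554 and 2220 CPM (0.30, adjusted p = 1.1e-03). Both calls were lost when 1 sum was left out, with adjusted p up to 0.24 and 0.14.

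The last contrast held the excluding genes at 0 on both sides and turned on the pair. The compared cells were the 1150 cells under 2500 UMIs with neither gene seen and the pair under 3 UMIs, at medians of 889 and 856 UMIs. Members had 452 genes higher, 2.91% of those tested, and 397 lower, 2.55% of them. The counts were 366 and 233 without members of replicate 1, 133 and 116 without members of replicate 2, 250 and 256 without the compared cells of replicate 1, and 202 and 183 without those of replicate 2. Of 70 named genes called, 35 kept their call in all 4 of those fits, and the ones given here are among them unless stated.

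Of the 10 largest rises here among genes with a mean of at least 50 CPM, 4 are given with their values. PH02Gene40249, annotated as germacrene D synthase, which makes a sesquiterpene, had 167 and 214 CPM in members, against 46.4 and 58.6 CPM in the compared cells (1.86, SE 0.21, adjusted p = 3.0e-09). PH02Gene24538, an inositol hexakisphosphate kinase, had 114 and 135 CPM in members, against 33.6 and 53.5 CPM in the compared cells (1.51, SE 0.23). PH02Gene02925, a norcoclaurine synthase-like protein, had 175 and 211 CPM in members, against 83.2 and 62.1 CPM (1.39, SE 0.18), and PH02Gene12967, a dnaJ cochaperone, had 125 and 127 CPM in members, against 49.6 and 53.5 CPM (1.28, SE 0.21). Counterparts had 150 and 174 CPM of PH02Gene40249 and 172 and 148 CPM of PH02Gene24538. They had 153 and 172 CPM of PH02Gene02925 and 128 and 136 CPM of PH02Gene12967, so high levels of these 4 genes were not particular to members. Of these 10 largest rises, 7 were on the study's Cluster 0 list, which also holds PH02Gene05035 of the pair. Laccase PH02Gene01024 stood against 2448 and 2268 CPM in the compared cells (0.80, SE 0.07, adjusted p = 5.0e-13).

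Several of the gene groups held no gene that fell in this contrast. Over all genes tested, 2.91% rose and 2.55% fell. Of the study's Cluster 0 list most genes rose here and none fell, as given below. That list holds 16 of the 25 ABC transporters, 15 of the 23 chaperones, 13 of the 25 ubiquitin ligases and 8 of the 13 pumps. The counts of these groups therefore cannot be told apart from those of that list. Of 24 ABC transporters 13 rose and none fell (median 0.50), of 23 chaperones 12 rose and none fell (median 0.52), of 24 ubiquitin ligases 10 rose and none fell, of 13 pumps 6 rose and none fell, of 7 LRR kinases 4 rose and none fell, and of 10 trehalose and sucrose genes 5 rose and none fell. Without members of replicate 2 the rises of the first 4 groups came to 6, 8, 4 and 3. PH02Gene32243, an ABC transporter of family B, had 315 and 401 CPM in members, against 167 and 164 CPM in the compared cells (1.11, SE 0.15), and PH02Gene02229, calcium-transporting ATPase 5, had 338 and 303 CPM in members, against 165 and 153 CPM (1.00, SE 0.13). Of 10 autophagy genes 3 rose and 2 fell, and of 14 AUX/IAA repressors none rose and 2 fell. Of 7 water channels none rose and 3 fell. PH02Gene26718, aquaporin PIP1-1, had 61.1 and 70.4 CPM in members, against 138 and 131 CPM in the compared cells (-1.04, SE 0.22), while the other 2 calls, of PH02Gene33633 (-0.42) and PH02Gene19725 (-0.28), were lost when 1 sum was left out (adjusted p up to 0.27 and 0.15).

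Among called genes with a mean of at least 50 CPM, the largest fall in this contrast was of a root cap marker. PH02Gene48860 had 16.5 and 18.8 CPM in members, against 192 and 233 CPM in cells with the pair low and neither gene seen (-3.60, SE 0.29, adjusted p = 1.1e-13). It had 23.7 and 31.7 CPM in counterparts and 51.5 and 27.5 CPM in cells with the pair low and a gene seen. Cells of at least 4000 UMIs had 19.0 and 26.2 CPM of it, so the compared cells were the class that stood apart. The other root cap gene that fell, PH02Gene28681, had 19.8 and 23.5 CPM in members, against 64.0 and 109 CPM (-1.99, SE 0.39), with its call lost without the compared cells of replicate 2 (adjusted p = 0.060). Of the unused ground tissue markers, PH02Gene29708 rose by 0.91 (SE 0.10) to 652 and 720 CPM in members, against 389 and 336 CPM, and PH02Gene15920 fell by 0.57 (SE 0.07) to 3068 and 2849 CPM in members, against 4329 and 4382 CPM. PH02Gene36478 fell by 0.78 (SE 0.15), with its call lost without members of replicate 2 (adjusted p = 0.084).

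The study lists 318 genes for its ground tissue Cluster 0 and not for Cluster 1, and 535 genes for Cluster 1 and not for Cluster 0. Both lists were drawn from these libraries, and 317 and 533 of them, other than genes of the choice, were tested. Against all other shallow cells, 60 genes of the Cluster 0 list rose and 5 fell, and none of the Cluster 1 list rose and 237 fell, with medians of 0.17 and -0.44. Without members of replicate 2 the first counts were 18 and 3, and the Cluster 1 falls were 158, or 148 without members of replicate 1. Against the counterparts, 26 genes of the Cluster 0 list rose and 33 fell (median -0.02), whereas 2 of the Cluster 1 list rose and 249 fell (median -0.44). Against cells with the pair low and neither gene seen, 193 genes of the Cluster 0 list rose and none fell (median 0.63), and of the Cluster 1 list 17 rose and 23 fell (median -0.05). Without members of replicate 2 those 193 came to 78. Against cells of at least 4000 UMIs, genes of both lists rose more than fell, as given above, with medians of 0.62 and 0.32. PH02Gene45651 and PH02Gene04869 are both on the Cluster 1 list, so the choice itself bears on these counts, although the study's text names PH02Gene45651 for Cluster 0.

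**Figure D5:**
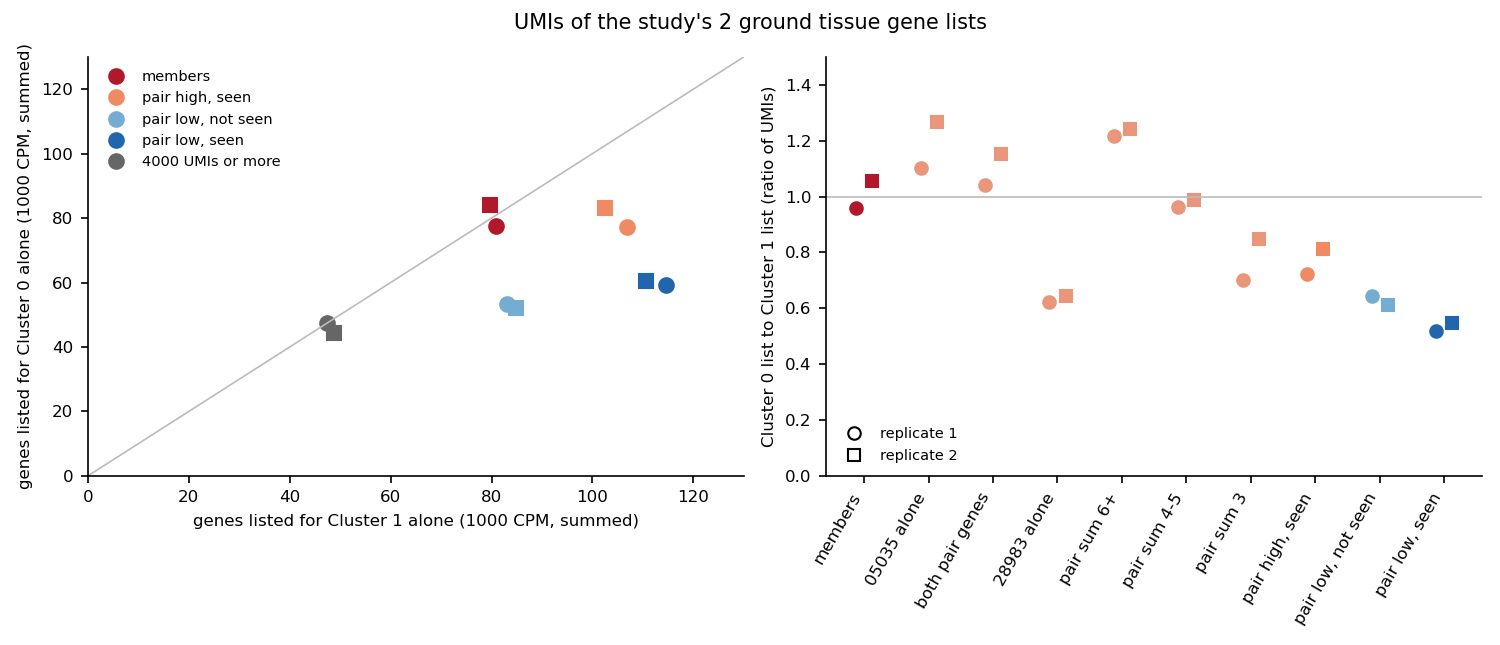
Left, summed levels of the genes listed by the study for Cluster 0 alone against those for Cluster 1 alone, in units of 1000 CPM without the genes of the choice, for members and 4 other classes in replicates 1 (circles) and 2 (squares), with the line of equality in grey. Right, the ratio of the Cluster 0 to the Cluster 1 sum in members, in subsets of members by the pair gene seen and by pair sum, and in 3 other classes under 2500 UMIs; the ratio was 0.96 and 1.06 in members and 0.72 and 0.81 in counterparts.

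In summed levels the 2 lists were about equal in members. The Cluster 0 list came to 77672 and 84212 CPM in members and the Cluster 1 list to 80955 and 79744 CPM, ratios of 0.96 and 1.06. In counterparts the ratios were 0.72 and 0.81, in cells with the pair low and neither gene seen 0.64 and 0.61, and in cells with the pair low and a gene seen 0.52 and 0.55. The choice asked for no UMI of 2 genes of the Cluster 1 list and for a pair that includes a gene of the Cluster 0 list, so the order of these classes was set in part by the choice. Cells of at least 4000 UMIs, of all types, had ratios of 1.00 and 0.91, with 47547 and 44289 CPM of the Cluster 0 list and 47426 and 48774 CPM of the Cluster 1 list.

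Members were not uniform in this respect. After thinning to 500 UMIs, 54.8% and 56.7% of members had more UMIs of the Cluster 0 than of the Cluster 1 list, against 38.1% and 45.5% of counterparts. Members with PH02Gene05035 alone had ratios of 1.10 and 1.27, those with both pair genes 1.04 and 1.15, and those with PH02Gene28983 alone 0.62 and 0.65. Members with a pair sum of 3 UMIs had ratios of 0.70 and 0.85, those with 4 to 5 UMIs 0.96 and 0.99, and those with 6 or more 1.22 and 1.24. These splits use the values that chose the members, with PH02Gene05035 on the Cluster 0 list and PH02Gene28983 on neither, and members with a pair sum of 3 UMIs were shallower (medians of 894 and 914.5 UMIs) than those with 9 or more (1120 and 1223 UMIs), so the ratios are a description only. By depth the ratio was 0.90 and 0.84 at 500 to under 1000 UMIs, 1.03 and 1.20 at 1000 to under 1500 UMIs, 1.09 and 1.15 at 1500 to under 2000 UMIs, and 0.78 and 1.05 at 2000 to under 2500 UMIs. In replicate 1 the level of PH02Gene28983 in members was 3706 CPM at 500 to under 1000 UMIs, 2376 CPM at 1000 to under 1500 UMIs and 1612 CPM at 1500 to under 2000 UMIs, while PH02Gene05035 stood at 2419, 2442 and 1845 CPM in the same cells. In replicate 2 PH02Gene28983 stood at 3534, 2380 and 1626 CPM and PH02Gene05035 at 2503, 2574 and 2915 CPM in those bins, so the 2 replicates differed in the second gene. Since the choice asked for 3 UMIs at any depth, the level of the pair in shallow members was set in part by the choice.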

How the data were processed

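The authors deposited, for each of the 2 libraries, a filtered matrix of UMI counts for 50936 genes, made with Cell Ranger 5.0.1 and STAR according to the submitters' processing notes; the counts are raw, and the genome build is not given in the sources used here. Cells with more than 500 genes were kept, and counts were summed per replicate and class of cells, since cells are not replicates. The study also filtered cells on their UMIs and on their share of mitochondrial RNA, which was not done here. Its clusters and lists thus came from fewer cells than the 15304 kept here, and whether it had left out some members was not tested. Members, gene lists and marker lists were chosen with earlier results of these data known. Gene descriptions came from the study's supplementary tables, which describe 178 of the 222 named genes, directly or through an ortholog; their fold changes were not used.

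Summed counts were tested with edgeR 4.0.16 in R 4.3.3 (glmQLFit and glmQLFTest, TMM, filterByExpr, Benjamini-Hochberg over all genes tested, threshold 0.05). Members, other cells under 2500 UMIs and cells of at least 4000 UMIs made up 1 fit of 6 sums, and the 4 classes under 2500 UMIs with the deep cells 1 fit of 10 sums. The 4 genes of the choice stayed in the sums and were left out of tests. The SE of a log2 fold change was its size over the square root of F. For each contrast the 10 largest and 10 smallest called fold changes among genes with a mean of at least 50 CPM and the same direction in both replicates were named, with all markers and, of each list, the 2 largest, the 2 smallest and the most abundant member. Sums with the same replicate number came from the same library and are paired by construction, yet their deviations from class means correlated between -0.017 and 0.023 in the first fit and between -0.051 and 0.041 in the second. On simulated counts with 200 genes changed 2-fold, some up and some down, 80% were recovered with 6 false calls in the contrast with other cells under 2500 UMIs (18765 genes), and 75% with 7 false calls in that with the counterparts (12877 genes). The changed genes were drawn from the more abundant ones, 1 spread was set for all genes, and no cells were chosen by their counts. These rates therefore do not cover scarce genes or the choice of members.

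Alternatives were DESeq2 1.42.0, RLE factors, no filter, the replicate block, other limits for the pair and for UMIs, every cell thinned to 500 UMIs (seed 7), and each sum of members left out. Library totals alone, cells of 1500 to under 2500 UMIs and each compared sum left out were chosen after seeing the data. Tables were handled in Python 3.11.15 with pandas 2.3.3, numpy 2.4.6 and scipy 1.17.1, and figures drawn with matplotlib 3.10.9.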

Additional observations from a re-analysis of the deposited data

How the results depend on the processing

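Members held medians of 977 and 1048 UMIs and 2 libraries carried every test, and both limit the counts. The counts of calls (higher and lower in members) were 184 and 562 against all other cells under 2500 UMIs, 3183 and 4714 against cells of at least 4000 UMIs, 400 and 732 against the counterparts with PH02Gene45651 or PH02Gene04869 seen, and 452 and 397 against cells with the pair low and neither gene seen, and they changed as follows in that order of contrasts. With every cell thinned to 500 UMIs they were 38 and 150, 1673 and 2330, 46 and 270, and 127 and 130. With cells of 1500 to under 2500 UMIs they were 30 and 210, 563 and 1231, 249 and 400, and 116 and 119. With cells of 1000 to under 2000 UMIs the third contrast had 163 and 385, and the fourth 267 higher. With the pair at 2 UMIs or more they were 294 and 908 in the first contrast, 635 and 1182 in the third, and 225 higher in the fourth; with the pair at 4 or more the third had 199 higher, with cells under 2000 UMIs 173 and with no filter on low counts 119. DESeq2 gave 348 lower in the first contrast. Library totals alone gave 6341 and 1763 in the second. With 1 sum left out, the ranges were 42 to 157 and 248 to 582, 1579 to 2560 and 3545 to 4788, 92 to 194 and 271 to 548, and 133 to 366 and 116 to 256. With the replicate block the counts were 156 and 496, 3059 and 4595, 422 and 740, and 458 and 418, and of 427 fold changes of named genes 423 kept their side of the threshold. Members made up 16.3% of cells under 2500 UMIs over both replicates (15.7% to 16.9% with 1 replicate), 22.2% with the pair at 2 UMIs or more, 11.6% with it at 4 or more and 10.4% among cells of 1500 to under 2500 UMIs, and 80.9% of them (80.7% to 81.0%) had an unused ground tissue marker after thinning.

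Of the thinned calls of the first contrast, 33 of the 38 higher and 146 of the 150 lower were also called at full depth. Fold changes that turned were those of PH02Gene02229 (-0.13) and PH02Gene05561 (-0.052) against other shallow cells of 1500 to under 2500 UMIs, and, against cells of at least 4000 UMIs with library totals alone, those of PH02Gene36445 (0.084, and 0.034 with thinned cells), PH02Gene41070 (0.0037), PH02Gene02396 (0.059), PH02Gene03621 (0.32), PH02Gene31128 (0.43), PH02Gene35863 (0.22), PH02Gene44580 (0.24), PH02Gene31368 (0.37), PH02Gene48920 (0.18), PH02Gene35254 (0.11), PH02Gene33943 (0.17), PH02Gene16245 (0.33), PH02Gene44779 (0.48) and PH02Gene37329 (0.070). The cause of these changes was not tested, beyond the fewer UMIs of thinned cells and the fewer cells of narrower depth ranges.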
